A study of Mus musculus with 2 samples.

Results

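The microRNA genes Mir99a, Mir99b, Mir100, Mir125a, Mir125b-1 and Mir125b-2 were chosen by name in the GENCODE M21 annotation, and all 6 were found among the 2202 microRNA genes counted. They make up the Mir99/100 and Mir125 families and lie beside let-7 genes in 3 clusters. Small RNA of under 30 nt was sequenced from a calf muscle, the gastrocnemius, of B6CASTF1/J males 4 days after birth, which are first-generation hybrids of C57BL/6 and CAST parents. The labels give 1 group of 2 libraries, replicate 2 and replicate 1, from separate biosamples under a shared donor identifier. No treatment, allele or second condition is named, so the only comparison is of the libraries with each other, and its ratios are replicate 2 over replicate 1.

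MicroRNAs are short RNAs cut from hairpin precursors that repress messenger RNAs, and the seed, bases 2 to 8 from the 5′ end, does most of the pairing. The Mir125 genes are the mammalian counterparts of lin-4, and with let-7 they belong to the pathway that times development in the nematode Caenorhabditis elegans. Transcripts of the clusters can carry a Mir99/100 hairpin, a let-7 hairpin and a Mir125 hairpin together, and let-7 maturation, unlike the cutting of the other hairpins, is blocked by the RNA-binding protein Lin28. Mir99 and Mir100 are known as repressors of Mtor, and in mouse muscle cells Mir125b is known to restrain Igf2 and differentiation.

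The mature sequences show which genes can be told apart by a short read and which cannot. They are given 5′ to 3′ from RefSeq for GRCm38.p6, the assembly of mm10, with the seed in capitals.
miR-99a-5p (Mir99a): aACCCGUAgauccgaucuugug
miR-100-5p (Mir100): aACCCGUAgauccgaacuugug
miR-99b-5p (Mir99b): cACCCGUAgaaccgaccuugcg
miR-125a-5p (Mir125a): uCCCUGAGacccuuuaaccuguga
miR-125b-5p (Mir125b-1 and Mir125b-2): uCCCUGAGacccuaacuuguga
miR-125b-1-3p (Mir125b-1): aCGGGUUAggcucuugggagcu
miR-125b-2-3p (Mir125b-2): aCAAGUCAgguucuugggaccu
let-7e-5p (Mirlet7e): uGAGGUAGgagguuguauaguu

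The 5p arms fell into 2 seed groups. Mir99a, Mir99b and Mir100 shared the seed ACCCGUA, which no other gene of the RefSeq table had. Counted from 1 at the 5′ end, miR-99a-5p and miR-100-5p differed by the single substitution U16A, outside the seed. From miR-99a-5p to miR-99b-5p there were 4 substitutions, A1C, U11A, U16C and U21C. The seed CCCUGAG was shared by Mir125a, Mir125b-1, Mir125b-2 and 3 genes outside the families, Mir351, Mir6367 and Mir6394. The 24 nt miR-125a-5p and the 22 nt miR-125b-5p were 3 edits apart. The 3p arms of the Mir125b genes carried different seeds and differed by 5 substitutions, G3A, G4A, U7C, C11U and G20C from Mir125b-1 to Mir125b-2.

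The 22 nt of miR-125b-5p occur in both Mir125b hairpins, which share an unbroken run of 24 nt. The count tables keep reads with several mapping places apart from the gene counts, and these were 45.1% of all reads of replicate 2 and 35.7% of those of replicate 1. The counts of Mir125b-1 and Mir125b-2 therefore leave out reads that match both hairpins equally, and they are uncertain as levels of Mir125b. How many such reads there were is not given in the sources used here. No stretch of 18 nt in Mir99a, Mir99b, Mir100 or Mir125a occurs in another annotated microRNA gene. A search of the genome outside those genes was not run, and the tables do not split reads by arm.

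The genes lie on the plus strand of mm10 in 3 clusters with the same order of families. On chromosome 16, Mir99a (chr16:77598936-77599000) is followed by Mirlet7c-1 and, 47337 nt from its start, by Mir125b-2 (chr16:77646273-77646343), all in introns of the noncoding gene Mir99ahg. On chromosome 17, Mir99b (chr17:17830188-17830257), Mirlet7e (chr17:17830352-17830444) and Mir125a (chr17:17830812-17830879) lie within 692 nt. They overlap Spaca6, a gene named for the sperm acrosome, with Mir99b in an intron and Mir125a in an annotated exon. On chromosome 9, Mir100 (chr9:41531425-41531504), Mirlet7a-2 and Mir125b-1 (chr9:41581926-41582002) lie in introns of the noncoding genes 3110039I08Rik and Gm49317. Mir99a also lies in an intron of Gm11146 on the opposite strand, Mir125b-2 in an exon of C130023A14Rik on the same strand, and Mirlet7e opposite the annotated microRNA gene Gm25927. Mir100 overlaps an exon of the lincRNA gene Gm48742 on the opposite strand, and Mir125b-1 an exon of the noncoding Gm28119 on the same strand. The 6 genes had 0 antisense reads in either library.

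Replicate 2 held 3073086 sense reads assigned to microRNA genes and replicate 1 held 4458853, and levels are given in CPM, the counts of a gene scaled to the same total of these reads in each library. The libraries stand apart in the markers of the labelled tissue, and replicate 2 goes against its label. Mir206, restricted to skeletal muscle, was counted 101 times in replicate 2 and 652657 times in replicate 1, while the heart-restricted Mir208a was counted 29718 and 59 times. The skeletal muscle list of 9 genes held 0.479% of reads in replicate 2 and 14.7% in replicate 1, each gene with reads in both. Without Mir206 the other 8 genes held 0.476% of replicate 2 and 0.0906% of replicate 1. In the counted reads Mir206 alone thus sets the direction of the list's summed share. Reads with several mapping places are left out here too, so marker genes with copies elsewhere can be undercounted. How many such reads the marker genes had is not given in the sources used here. By the 2-fold rule given below, 3 of the list's 8 tested genes were higher in replicate 2 (Mir486, Mir208b and Mir499). The lower ones were 4 (Mir206, Mir133b, Mir1a-1 and Mir133a-1), where 20.7% of all genes were called higher and 37.8% lower. With total reads 4 were higher and 2 lower, where 34.9% and 29.8% of all genes were. Under DESeq2 size factors 4 were higher and 2 lower too, where 27.6% and 32.9% of all genes were. Whether the listed genes besides Mir206 tell skeletal muscle from heart was not examined. Since the tissue label of replicate 2 is in doubt, the libraries may not be replicates of 1 tissue, and each mean ± SD and each ratio below describes the libraries as labelled. The markers of endothelium held 6.62% and 2.54%, of smooth muscle 4.90% and 2.17%, of red cells 0.0979% and 0.0220%, and of white cells 0.429% and 0.0793% of replicate 2 and replicate 1. Fibroblast markers held 0.281% and 0.591%, with 1 of 4 genes without counted reads in replicate 2. Neural markers held 0.0426% and 0.142%, with 6 of 11 without counted reads in both. Of the 4 neural genes tested, 1 was called higher (Mir219a-1) and 3 lower (Mir128-1, Mir128-2 and Mir338). The counts were the same with DESeq2 size factors and total reads. For a marker gene with copies elsewhere, 0 counted reads does not show that it is absent. The part of these markers in the values below was not tested. In tissue libraries a different share of a cell type and a different level per cell cannot be told apart.

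Together the 6 genes held 5.41% of microRNA reads in replicate 2 (95% interval 5.38 to 5.43%) and 2.94% in replicate 1 (2.93 to 2.96%). Their mean share was 4.17% ± 1.74 (SD, n = 2). Intervals throughout are exact Clopper-Pearson and cover counting error only. The 3 Mir99 and Mir100 genes held 4.57% of replicate 2 and 2.59% of replicate 1, and the 3 Mir125 genes held 0.833% and 0.354%. Most of the reads of the families in both libraries thus came from the Mir99/100 seed group, with the reads shared by both Mir125b loci not counted.

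Mir99a led the families in counted reads, which leave out those that match both Mir125b hairpins. It had 97444 reads or 31709 CPM in replicate 2, where it ranked at 10 of all genes, and 83999 reads or 18839 CPM in replicate 1, where it ranked at 15. Of the reads of the 6 genes it took 58.6% in replicate 2 and 64.0% in replicate 1. Its paralog Mir100, 1 base apart in the 5p arm, had 15063 reads or 4902 CPM in replicate 2 and 15035 reads or 3372 CPM in replicate 1. Mir99a thus had 6.47 times the reads of Mir100 in replicate 2 (6.36 to 6.58) and 5.59 times in replicate 1 (5.49 to 5.69).

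Mir99b and Mir125a, neighbours on chromosome 17, stood at similar levels within each library. Mir99b had 28036 reads or 9123 CPM in replicate 2 and 16391 reads or 3676 CPM in replicate 1. Mir125a had 24444 reads or 7954 CPM in replicate 2 and 13329 reads or 2989 CPM in replicate 1. Reads of Mir99b were 1.15 times those of Mir125a in replicate 2 (1.13 to 1.17) and 1.23 times in replicate 1 (1.20 to 1.26).

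The counted reads of the Mir125b genes were few. Mir125b-1 had 692 reads or 225 CPM in replicate 2 and 1871 reads or 420 CPM in replicate 1, and was the only one of the 6 genes with the higher CPM in replicate 1. Mir125b-2 had 472 reads or 154 CPM in replicate 2 and 589 reads or 132 CPM in replicate 1. Mir125b-1 had 1.47 times the reads of Mir125b-2 in replicate 2 (1.30 to 1.65) and 3.18 times in replicate 1 (2.89 to 3.49).

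**Figure D1:**
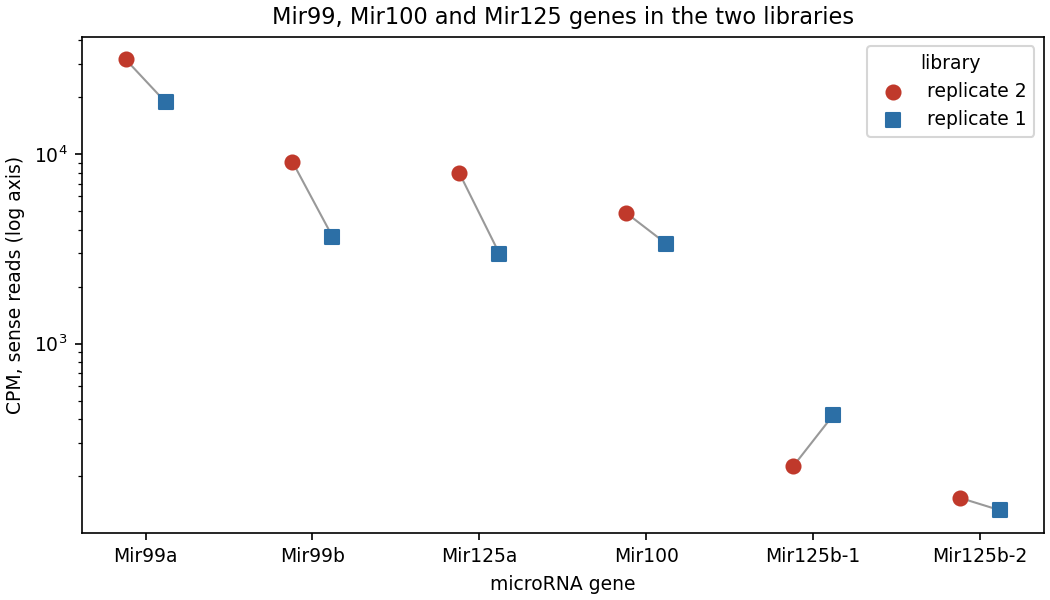
Level of each gene in CPM of sense microRNA reads, on a log axis, with 1 point for replicate 2 and 1 for replicate 1 and a line joining them. Mir99a lies highest in both libraries, and Mir125b-1 is the gene whose point is lower in replicate 2 (225 CPM, against 420 in replicate 1). Reads that match both Mir125b hairpins are not counted, so the levels of the Mir125b genes are uncertain.

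By mean CPM of counted reads the order was Mir99a at 25274 ± 9101, Mir99b at 6400 ± 3852, Mir125a at 5472 ± 3511, Mir100 at 4137 ± 1082, Mir125b-1 at 322 ± 137 and Mir125b-2 at 143 ± 15.2 (SD, n = 2 each). The places of the Mir125b genes are uncertain, since reads that match both of their hairpins were not counted. The ranges of Mir99b and Mir125a over the libraries overlapped, as did those of Mir125a and Mir100. Within each library Mir99b stood above both, with 1.86 times the reads of Mir100 in replicate 2 and 1.09 times in replicate 1. Mir125a stood above Mir100 in replicate 2 (7954 CPM and 4902 CPM) and below it in replicate 1 (2989 CPM and 3372 CPM). The ranges of the other neighbours in the order did not overlap. A read of this length spans a mature microRNA, and CPM per nucleotide of the 5p arm gave the same order in each library. That is no check on the order, since only Mir125a has an arm of 24 nt and the others have 22 nt.

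Between the libraries, Mir99a and Mir100 stood near a log2 ratio of 0, Mir99b and Mir125a above it and the Mir125b genes below it. A gene was called when its log2 ratio, after scaling by the trimmed mean of M values (TMM), was at least 1 in either direction. Of the 6 genes, 1 was called, the lower Mir125b-1. Of all 410 genes with at least 10 reads, 240 were called (58.5%), with 20.7% higher in replicate 2 and 37.8% lower. Among the 181 genes with at least 1000 reads in total, which include the 6, 62.4% were called. The median absolute log2 ratio was 0.55 over the 6 genes, against 1.25 over the 410 and 1.63 over the 181. These medians are for TMM only. With 2 libraries of 1 group there is no test of these differences, and the ratios describe this pair.

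The log2 ratios were 0.12 for Mir99a (95% counting interval 0.11 to 0.14), −0.09 for Mir100 (−0.12 to −0.05), 0.68 for Mir99b (0.66 to 0.71) and 0.79 for Mir125a (0.75 to 0.82). That of Mir125b-2 was −0.41 (−0.59 to −0.23). Mir125b-1 was lower at −1.52 (−1.65 to −1.40), and its reads shared with Mir125b-2 were not counted. The scaling sets the sign of some of these ratios. With total reads Mir99a stood at 0.75, Mir100 at 0.54 and Mir125b-2 at 0.22, and Mir125b-1 lost its call at −0.90. Mir99b and Mir125a were then called higher, at 1.31 and 1.41, where 34.9% of all genes were called higher, 29.8% lower and 64.6% in all. With DESeq2 size factors Mir125a was called at 1.06, Mir99b was not at 0.96, Mir100 turned to 0.19 and Mir125b-1 stayed lower at −1.24, where 27.6% of all genes were called higher, 32.9% lower and 60.5% in all. The median log2 ratio over all 410 genes was −0.33 with TMM, and it shifted by 0.59 with total reads and by 0.26 with DESeq2 size factors. With the Dlk1-Dio3 microRNA genes left out of TMM, Mir99a turned to −0.01.

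**Figure D2:**
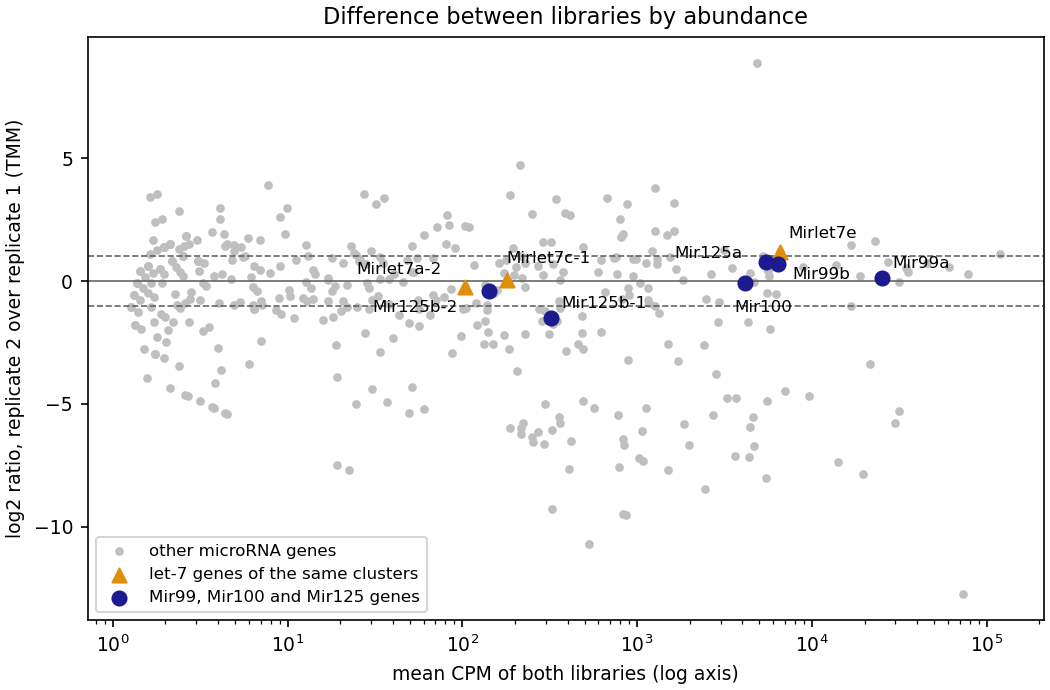
Log2 ratio of replicate 2 over replicate 1 (TMM) against the mean CPM on a log axis, with 1 point per microRNA gene for the 410 genes with at least 10 reads and dashed lines at a ratio of 1 and −1. The Mir99, Mir100 and Mir125 genes run from −1.52 to 0.79, and of the labelled points only Mir125b-1 and Mirlet7e (1.16) lie outside the dashed lines.

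Read ratios within a library do not depend on the scaling. Of the 15 pairs among the 6 genes, 8 had ratios less than 2-fold apart between the libraries and 7 had ratios at least 2-fold apart. Of those 7, 5 involved Mir125b-1 and the others paired Mir125b-2 with Mir99b and with Mir125a. All 7 thus include a Mir125b gene, and reads that match both Mir125b hairpins were left out of these counts. The steadiest pair was Mir99b over Mir125a, 1.07-fold apart, and the least steady was Mir125a over Mir125b-1, at 35.3 in replicate 2 and 7.12 in replicate 1, 4.96-fold apart. The counting intervals of the libraries overlapped for 0 of the 15 pairs. These intervals cover counting error only, and pairs of other genes were not compared. The pair counts thus describe the 6 genes without a background.

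**Figure D3:**
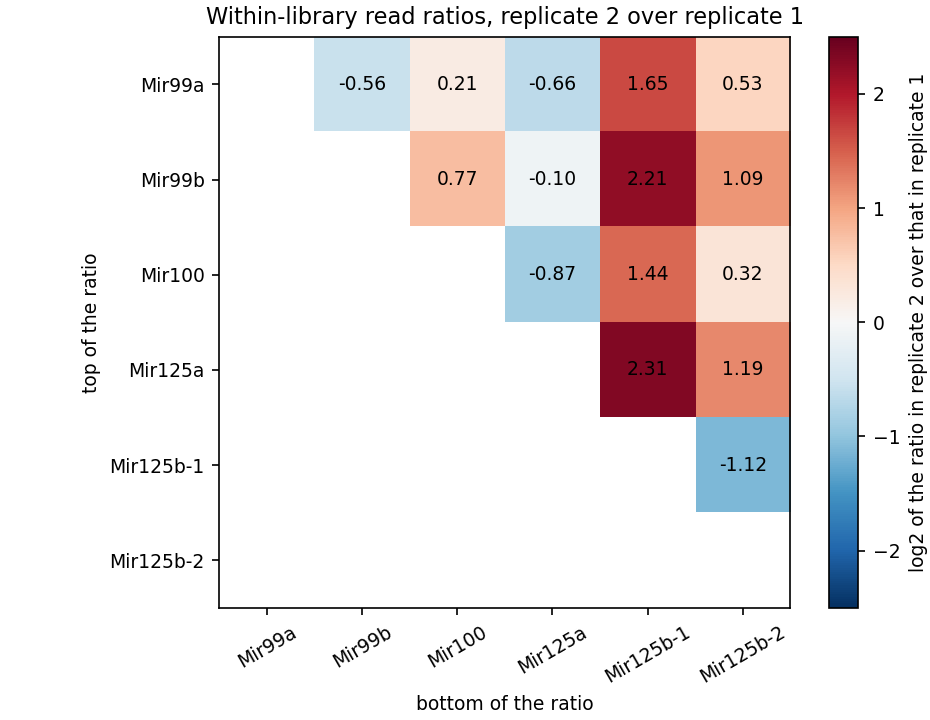
Log2 of the read ratio of each pair in replicate 2 over that in replicate 1, with the row gene on top of the ratio and the column gene below it. The Mir125b-1 column holds the largest values, up to 2.31 for Mir125a over Mir125b-1, and Mir99b over Mir125a lies nearest 0 at −0.10. Reads that match both Mir125b hairpins are not counted.

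The chromosome 17 cluster is where all 3 hairpins can be compared, since the let-7e sequence is not shared with another annotated microRNA gene. Mirlet7e had 31434 reads in replicate 2 and 13202 in replicate 1. All 3 genes had positive log2 ratios, 0.68 for Mir99b, 1.16 for Mirlet7e (1.13 to 1.19) and 0.79 for Mir125a, and only Mirlet7e was called. With total reads all 3 were called, and with DESeq2 size factors Mirlet7e and Mir125a. The cluster held 2.73% of replicate 2 and 0.963% of replicate 1.

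Within the cluster the let-7 gene had the larger part in replicate 2. Mirlet7e took 37.5% of the cluster's reads in replicate 2 (37.1 to 37.8%) and 30.8% in replicate 1 (30.3 to 31.2%). Mir99b took 33.4% and 38.2%, and Mir125a took 29.1% and 31.1%, of replicate 2 and replicate 1. Reads of Mir99b were 0.892 times those of Mirlet7e in replicate 2 (0.878 to 0.906) and 1.24 times in replicate 1 (1.21 to 1.27). Those of Mir125a were 0.778 times (0.765 to 0.791) and 1.01 times (0.986 to 1.03). Mirlet7e thus led the cluster in replicate 2 and Mir99b in replicate 1.

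In the chromosome 16 and chromosome 9 clusters the Mir99/100 gene took nearly all counted reads. Mir99a held 98.8% of its cluster's reads in replicate 2 and 98.6% in replicate 1, and Mir100 held 93.5% and 86.9%. Their let-7 neighbours are among the genes with copies elsewhere. Mirlet7c-1 (677 reads in replicate 2 and 619 in replicate 1) shares 22 nt with Mirlet7c-2, and Mirlet7a-2 (360 and 400 reads) shares 22 nt with Mirlet7a-1, so these counts are uncertain too. Mir99a over Mirlet7c-1 was 144 in replicate 2 (133 to 155) and 136 in replicate 1 (125 to 147). Mir100 over Mirlet7a-2 was 41.8 (37.7 to 46.6) and 37.6 (34.0 to 41.6). In both of these pairs the intervals of the libraries overlapped.

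Of the ratios to a let-7 neighbour, that of Mir125b-1 differed most between the libraries. Mir125b-1 over Mirlet7a-2 was 1.92 in replicate 2 (1.69 to 2.19) and 4.68 in replicate 1 (4.20 to 5.22), and Mir125b-1 took 4.29% of its cluster's reads in replicate 2 and 10.8% in replicate 1. Mir125b-2 over Mirlet7c-1 was 0.697 (0.619 to 0.785) and 0.952 (0.849 to 1.07). That is 1.36-fold apart, close to the 1.39-fold of Mir99b over Mirlet7e. Mir100 over Mir125b-1 was 21.8 in replicate 2 and 8.04 in replicate 1, 2.71-fold apart, and Mir99a over Mir125b-2 was 206 and 143, 1.45-fold apart. These counts leave out reads that match both Mir125b hairpins.

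**Figure D4:**
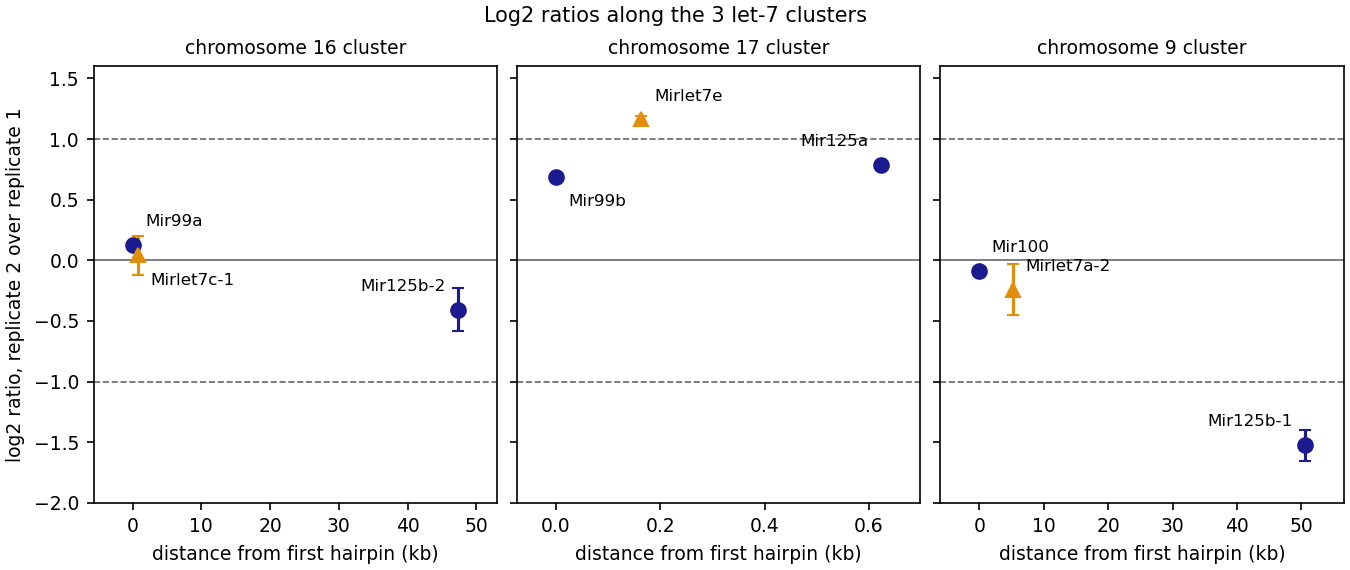
Log2 ratio of replicate 2 over replicate 1 (TMM) with its 95% counting interval, against the distance of each hairpin from the first of its cluster in kb, for the clusters on chromosomes 16, 17 and 9, each with its own distance axis. Circles are Mir99, Mir100 and Mir125 genes, triangles are let-7 genes and dashed lines mark 1 and −1. The chromosome 17 genes lie between 0.68 and 1.16, and the last gene of the chromosome 9 cluster, Mir125b-1, lies at −1.52.

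Over the whole let-7 family, 2 of 12 genes were called higher, Mirlet7b and Mirlet7e, and 0 lower, where 20.7% of all genes were called higher and 37.8% lower. With total reads 5 were higher, where 34.9% of all genes were, and under DESeq2 size factors 3, where 27.6% were. The family's median log2 ratio was 0.28, against 0.02 over the 6 Mir99, Mir100 and Mir125 genes and −0.33 over all 410 genes. The let-7 list held 28.2% of replicate 2 and 12.3% of replicate 1. These family values leave out reads that match several let-7 genes equally. Mirlet7a-2 shares 22 nt with Mirlet7a-1, and Mirlet7c-1 with Mirlet7c-2.

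Among genes that resemble the families in sequence, Mir10b and Mir351 were lower in replicate 2. The Mir10 genes, which lie in Hox clusters, carry 5p arms 3 to 6 edits from those of Mir99a, Mir99b and Mir100, with another seed. Mir10b had 1743 reads in replicate 2 and 22639 in replicate 1, a log2 ratio of −3.79, and was called lower under all scalings tried here. Mir10a, with 3268 and 5647 reads, stood at −0.88. Reads of Mir10b were 0.116 times those of Mir100 in replicate 2 and 1.51 times in replicate 1. Mir351, an X-linked gene whose 5p arm carries the Mir125 seed, was lower at −1.94, with 10200 reads in replicate 2 and 36724 in replicate 1. Its reads exceeded those of Mir125a in replicate 1 but not in replicate 2. The other genes with this seed, Mir6367 and Mir6394, had 0 reads in both libraries. With a limit of 3 counts, which is not a Clopper-Pearson limit, a count of 0 allows up to 0.976 CPM in replicate 2. In replicate 1, at its greater depth, it allows up to 0.673 CPM.

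The genes with the nearest log2 ratios were sought among 180 others with at least 1000 reads in total. With 2 libraries this likeness rests on a single ratio per gene. For Mir99a they were Mir210 (0.13), Mir25 (0.06) and Mir361 (0.05), and for Mir100 they were Mir181d (−0.07), Mir23b (−0.06) and Mir30a (−0.05). For Mir99b they were Mir149 (0.68), Mir142 (0.70) and Mir484 (0.71), and for Mir125a they were Mirlet7d (0.79), Mir126a (0.75) and Mir140 (0.75). Mir125b-1 lay nearest Mir148a (−1.44), Mir18 (−1.62) and Mir374b (−1.63), and Mir125b-2 nearest Mir3102 (−0.37), Mir425 (−0.45) and Mir744 (−0.49).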

How the data were processed

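For each library the deposited table gives raw counts per microRNA gene, unstranded, sense and antisense. The deposited description files name mm10 as the assembly and GENCODE M21 as the annotation, which also gave names and overlaps here. The layout, with 4 summary lines, is that of STAR gene counts. No source used here names the aligner or trimming. Values come from the sense column, with the summary lines left out of totals, except where an alternative or the antisense column is named. Assigned to microRNA genes were 42.4% of all reads in replicate 2 and 52.3% in replicate 1. Unmapped reads were 8.60% and 9.97%, and reads outside microRNA genes 3.83% and 2.05%.

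Log2 ratios used a prior count of 1 and TMM sizes (edgeR 4.0.16, R 4.3.3) over genes with at least 10 reads in total. The calculation was tried on simulated Poisson counts with folds balanced in both directions. That does not check the scaling for these data, where more genes were called lower than higher. Alternatives were DESeq2 1.42.0 size factors, total reads, other minimum counts, a prior count of 5, the unstranded column, other denominators and each library alone. TMM without the Dlk1-Dio3 genes was added after seeing the data. A count of 0 was limited at 3 counts. PCR copies are not independent molecules. With 1 group, no p-value was computed. The members and lists were chosen with earlier results of these data known. Named genes were the 6 members, let-7 genes within 60 kb, the Mir10 genes, tissue markers and the 3 nearest in log2 ratio. Mir351, Mir6367 and Mir6394 were added for their seed, and Mirlet7b for its call. Python 3.11.15, numpy 2.4.6, scipy 1.17.1, pandas 2.3.3 and matplotlib 3.10.9 were used.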

Additional observations from a re-analysis of the deposited data

How the results depend on the processing

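The count of the 6 genes at least 2-fold apart was 1, against 2 with total reads, 2 with DESeq2 size factors and 3 with a minimum of 100 reads, where 65.0% of all genes were called. It stayed at 1 with no minimum on reads, a prior count of 5, the unstranded column and TMM without the Dlk1-Dio3 genes. Over all genes the count was 240, against 407 with no minimum, which tests more genes, and the share called was 58.5% against 56.6%. Of the 407, 202 were higher and 205 lower. The mean combined share of 4.17% became 1.92% over all reads of the library, 2.29% in replicate 2 and 1.54% in replicate 1, because that total also holds unassigned reads. Without the Dlk1-Dio3 genes in the total, the share was 5.46% in replicate 2 and 4.39% in replicate 1. Each library alone gave 2.94% to 5.41%. Across the scalings, minimums and columns, log2 ratios ran from −0.01 to 0.75 for Mir99a, −0.22 to 0.54 for Mir100 and −0.54 to 0.22 for Mir125b-2, so their sign depends on the scaling. They ran from 0.55 to 1.31 for Mir99b, 0.65 to 1.41 for Mir125a and −1.66 to −0.90 for Mir125b-1. The 4 ratios to Mirlet7c-1 and Mirlet7a-2 had the same values in the unstranded column. Those to Mirlet7e have no value there, since Mirlet7e has 0 unstranded reads and overlaps Gm25927 on the opposite strand. No paired analysis was possible because there is a single group. Depth is not the main limit for the abundant genes, whose counting intervals are narrow. The counted reads of the Mir125b genes are limited by their shared 5p sequence.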
